A study of Sus scrofa with 16 samples.

Results

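Activin signalling was followed in the pig pituitary through 6 genes: the receptors *ACVR1B* and *ACVR2A* and the SMAD genes *SMAD2*, *SMAD3*, *SMAD4* and *SMAD7*. All but *SMAD7*, which inhibits it, carry the signal from the cell surface to the nucleus. Of 10 symbols of this pathway, these 6 were paired with an Ensembl gene in the authors' own annotated table, and all 6 passed the filter on low counts, out of 25880 genes counted and 13621 tested. The other 4, *INHBA*, *INHBB*, *FST* and *ACVR2B*, carried their symbol only in the Ensembl name table and are described beside the 6 as genes of the same pathway. The RNA came from whole pituitaries of 16 unrelated Złotnicka White gilts with a labelled age of 180 days, 8 of low (LFC) and 8 of high (HFC) feed conversion, which came from different farms, were fed and housed alike at 1 test station and carried no labelled treatment. The paper ended the test at a set body weight. It reports that the HFC gilts spent more days in test, gained less per day and had more fat at several sites. Time in test, growth and fatness therefore cannot be told apart from feed conversion in these groups, although the age label is the same. Whole glands were homogenized, so every value is an average over all cells of the gland, and fewer cells of a type cannot be told apart from less RNA per cell. Sequencing reads were counted per gene by the authors, between 6010629 and 11794256 per pig.

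Activins are dimers of inhibin beta subunits, encoded by *INHBA* and *INHBB*. They bind the type II receptors *ACVR2A* and *ACVR2B*, which then recruit and switch on the type I receptor *ACVR1B*. This receptor phosphorylates SMAD2 and SMAD3, which enter the nucleus with the shared partner SMAD4, while SMAD7 blocks the receptor and follistatin (*FST*) captures activin outside the cell. In gonadotrophs, the pituitary cells that make the gonadotropins, activin is known for driving *FSHB*, the beta subunit of follicle-stimulating hormone, and inhibin opposes it.

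The tissue carried the marks of an anterior lobe in every pig. *PRL* had between 15500 and 112500 CPM, *GH1* between 23060 and 85940 CPM, *POMC* between 8587 and 83140 CPM and *CGA* between 12040 and 53610 CPM, where CPM is the count per 1000000 reads of the TMM-scaled library. The posterior lobe glia genes *GFAP* and *MBP* together ranged from 107 to 4349 CPM. The summed levels of some hormone cell lists differed between the groups: the 4 somatotroph and lactotroph genes summed to between 59470 and 91720 CPM in LFC and between 74310 and 175100 CPM in HFC (exact two-sided permutation p = 0.0168), with log2 fold changes of 1.27 for *PRL* and 0.04 for *GH1* among them, and the 2 corticotroph genes to between 15610 and 83390 CPM and between 8657 and 25800 CPM (exact two-sided permutation p = 0.00497). The corticotroph sum was nearly all *POMC*, which alone ran from 15520 to 83140 CPM in LFC and from 8587 to 25690 CPM in HFC. It therefore says little about the other gene of that list, *TBX19*. *HBB* of red blood cells was also lower in HFC (exact two-sided permutation p = 0.0230), while the gonadotroph and thyrotroph list gave p = 0.106 in the same exact test. The part of the corticotroph and blood lists in the group differences below was not tested. Libraries also differed in how expression depended on gene length. For each pig, log2 expression of each gene was taken as its deviation from the gene's mean over the 16 pigs. The slope of these deviations on the log2 length of the gene in the genome was taken over 10890 genes. The slope is therefore relative to the other pigs. It ran from -0.0826 to 0.0350 in the LFC pigs and from -0.0643 to 0.0640 in HFC (p = 0.125, exact two-sided permutation test). LFC replicates 4 and 6 and HFC replicate 5 had the 3 lowest slopes, and the slope had a Pearson's r of 0.980 with the first principal component of expression, given here as a description of the 16 libraries.

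None of the 6 genes passed the test between the feed conversion groups. With an adjusted p up to 0.05 and at least a 1.3-fold difference as the rule, 0 of the 6 were called by edgeR's quasi-likelihood test, by DESeq2 or by limma voom, against 0% of all genes tested in edgeR and 0.216% in DESeq2. At an unadjusted p of at most 0.05 the count was again 0 of 6 with each tool, against 11.4% of all genes in edgeR, or 7.03% higher and 4.41% lower in HFC. Of these background genes 61.4% were higher in the HFC pigs, a share that was 52.6% with upper-quartile scaling and 46.0% with scaling by total library size. The log2 fold changes of the 6, HFC over LFC, ran from -0.05 to 0.24 with a median of 0.05, against a median of -0.01 over all genes tested. For none of the 6 were the groups free of overlap, which was the case for 0.00734% of all genes.

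**Figure D1:**
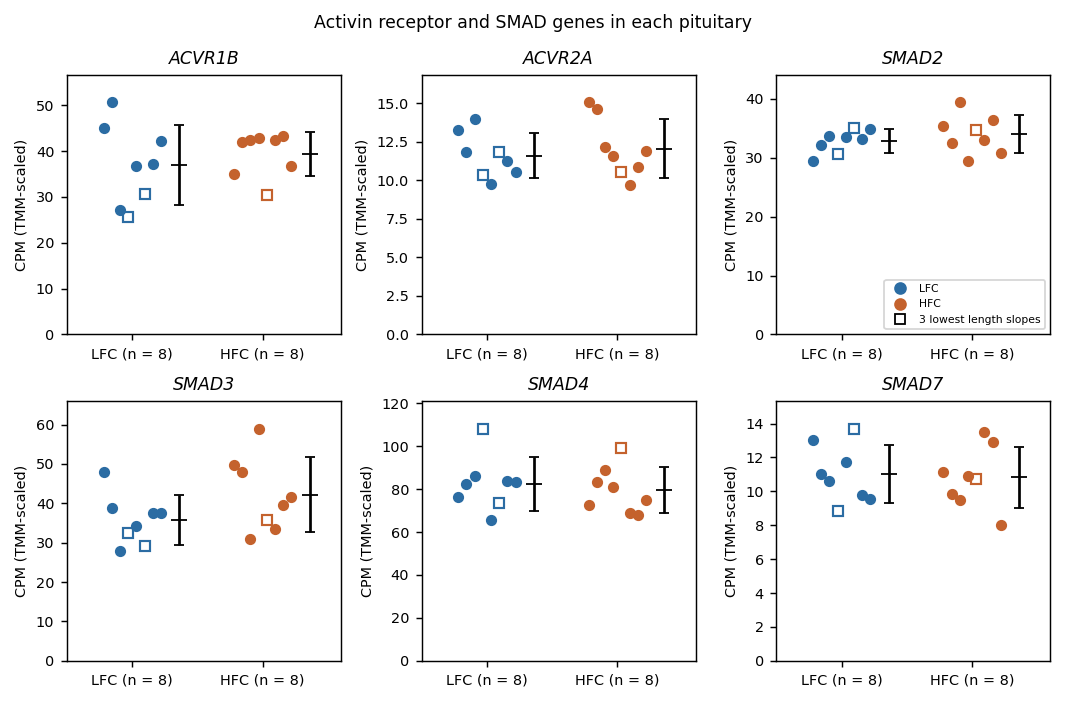
Expression of the 6 genes in each pig, in TMM-scaled CPM on an axis from 0, with LFC pigs in blue, HFC pigs in orange, and the mean ± SD of 8 pigs beside each group. Open squares are the 3 libraries with the lowest length slopes, and in every panel the ranges of the groups overlap, with *SMAD2* the tightest (29.4 to 39.4 CPM).

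*ACVR1B* (ENSSSCG00000000233, chromosome 5, 17314276 to 17350723 on Sscrofa11.1) encodes the type I receptor that hands the signal to the SMADs. In the LFC pigs its lowest, median and highest values were 25.7, 37.0 and 50.6 CPM, and in the HFC pigs 30.4, 42.2 and 43.4 CPM. The LFC pigs spanned the wider range, with a mean of 36.9 ± 8.78 CPM (SD, n = 8), against 39.4 ± 4.76 CPM (SD, n = 8) for HFC, and held both the lowest and the highest pig of the study. The log2 fold change was 0.09 (SE 0.13; 95% confidence interval -0.18 to 0.37; adjusted p = 0.742 in edgeR, exact two-sided permutation p = 0.401).

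*ACVR2A* (ENSSSCG00000015669, chromosome 15, 4173797 to 4259962) encodes a type II receptor, which binds the ligand first. It ran from 9.75 to 14.0 CPM around a median of 11.5 CPM in the LFC pigs and from 9.69 to 15.1 CPM around 11.8 CPM in the HFC pigs, so the groups covered nearly the same values. Its mean was 11.6 ± 1.45 CPM (SD, n = 8) for LFC and 12.1 ± 1.90 CPM (SD, n = 8) for HFC, and the log2 fold change was 0.05 (SE 0.12; 95% confidence interval -0.19 to 0.30; adjusted p = 0.839 in edgeR). With 56 to 135 reads per pig, counting alone gives a coefficient of variation of 10.1%, close to the 12.5% seen between the LFC pigs. The annotation has *ORC4* overlapping 2.94% of the *ACVR2A* span, and since the libraries did not keep the strand, reads from these shared bases cannot be assigned to either gene.

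*SMAD2* (ENSSSCG00000004505, chromosome 1, 97415716 to 97511880), a receptor-activated SMAD, was the most even of the 6 genes from pig to pig. It ran from 29.4 to 35.1 CPM in the LFC pigs, with a median of 33.4 CPM, and from 29.4 to 39.4 CPM in the HFC pigs, with a median of 33.9 CPM. Its coefficient of variation was 6.05% in the LFC and 9.44% in the HFC pigs, where counting error alone gives 6.00% at its mean of 278 reads. The log2 fold change was 0.05 (SE 0.07), and its 95% confidence interval of -0.11 to 0.21 corresponds to fold changes from 0.929 to 1.15 (adjusted p = 0.760 in edgeR), which leaves out the 1.3-fold used for calls.

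*SMAD3* (ENSSSCG00000004952, chromosome 1, 164998457 to 165124449) is the other receptor-activated SMAD and, unlike SMAD2, binds DNA itself. It had the largest difference of the 6. In the LFC pigs it ran from 27.9 to 48.0 CPM with a median of 35.9 CPM, and in the HFC pigs from 30.9 to 59.0 CPM with a median of 40.6 CPM. Only HFC replicates 1 and 4 lay above all LFC pigs. The means were 35.7 ± 6.37 CPM (SD, n = 8) for LFC and 42.2 ± 9.43 CPM (SD, n = 8) for HFC, and the log2 fold change was 0.24 (SE 0.14; 95% confidence interval -0.05 to 0.52; unadjusted p = 0.0951 and adjusted p = 0.467 in edgeR; exact two-sided permutation p = 0.130). Without LFC replicate 1 it was 0.31 (unadjusted p = 0.0313 in edgeR) and without HFC replicate 3 it was 0.29 (unadjusted p = 0.0410 in edgeR), while without HFC replicate 4, its highest pig, it was 0.15 (unadjusted p = 0.241 in edgeR). With each pig's length slope in the model it was 0.11 (unadjusted p = 0.390 in edgeR), and with 1 surrogate variable 0.09. *AAGAB* overlaps 1.15% of the *SMAD3* span in the annotation.

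*SMAD4* (ENSSSCG00000004524, chromosome 1, 100514791 to 100632822), the partner that both activin and BMP signals share, ran from 65.6 to 108 CPM in the LFC pigs, with a median of 83.0 CPM, and from 68.2 to 99.0 CPM in the HFC pigs, with a median of 78.0 CPM. The highest pig of each group, LFC replicate 4 and HFC replicate 5, was 1 of the 3 libraries of lowest length slope. The log2 fold change was -0.05 (SE 0.10; 95% confidence interval -0.27 to 0.16; adjusted p = 0.828 in edgeR), and 0.02 without LFC replicate 4. *ELAC1* overlaps 18.5% of the span of *SMAD4* in the annotation and had between 45 and 100 reads per pig, against 430 to 830 for *SMAD4*, with a Pearson's r of 0.539 between them across the 16 pigs. In RefSeq the protein-coding *LOC102159046* overlaps *SMAD4* too. Here again, reads from shared bases cannot be assigned to either gene without the strand.

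*SMAD7* (ENSSSCG00000004507, chromosome 1, 98510229 to 98542315), the inhibitory SMAD that is itself switched on by the pathway it blocks, showed the smallest difference. It ran from 8.83 to 13.7 CPM in the LFC pigs and from 8.04 to 13.5 CPM in the HFC pigs, with the same median of 10.8 CPM in both groups. Its log2 fold change was -0.02 (SE 0.13; 95% confidence interval -0.29 to 0.24; adjusted p = 0.936 in edgeR). *SMAD2*, *SMAD7* and *SMAD4* lie close together on chromosome 1, with gaps of 998 kb between *SMAD2* and *SMAD7* and 1972 kb between *SMAD7* and *SMAD4*.

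The genes for the ligands and for follistatin were at very different depths of measurement. *INHBB*, the beta subunit of activin B and inhibin B, had between 177 and 740 reads per pig. It ran from 31.9 to 74.1 CPM with a median of 51.7 CPM in the LFC pigs and from 32.3 to 78.9 CPM with a median of 53.8 CPM in the HFC pigs, so the spread within each group was wide and the groups covered nearly the same values. The log2 fold change was 0.06 (SE 0.20; 95% confidence interval -0.36 to 0.47; adjusted p = 0.903 in edgeR). *INHBA*, the beta subunit of activin A, had only 1 to 15 reads per pig and 105 in all, and *FST* only 2 to 15 and 142 in all. Neither of these passed the filter, so no group difference was tested, and counting error alone came to 39.0% and 33.6% of their mean counts.

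*ACVR2B*, the other type II receptor, was the only listed gene with an unadjusted p of at most 0.05 between the groups. This was 1 of the 8 listed genes that were tested, against 11.4% of all genes tested in edgeR. It had 17 to 72 reads per pig and ran from 2.59 to 5.44 CPM with a median of 3.38 CPM in the LFC pigs and from 2.66 to 7.38 CPM with a median of 5.65 CPM in the HFC pigs. In 6 of the 8 HFC pigs it was above every LFC pig, while HFC replicate 6 was near the bottom of the LFC range. The log2 fold change was 0.49 (SE 0.22; 95% confidence interval 0.04 to 0.95; unadjusted p = 0.0337 and adjusted p = 0.427 in edgeR; exact two-sided permutation p = 0.0413), so it did not pass the adjusted threshold over all genes. It lost even the unadjusted threshold without the 3 libraries of lowest length slope (log2 fold change 0.42, unadjusted p = 0.110 in edgeR) and with the length slope in the model (0.40, unadjusted p = 0.0939 in edgeR). The same was true when LFC replicate 3, 4, 5 or 7 or HFC replicate 2 or 4 was left out, with unadjusted p-values from 0.0549 to 0.0699 in edgeR. Across the pigs its r with the mean level of the posterior lobe glia list was -0.521 (permutation p = 0.0397, adjusted 0.334).

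**Figure D2:**
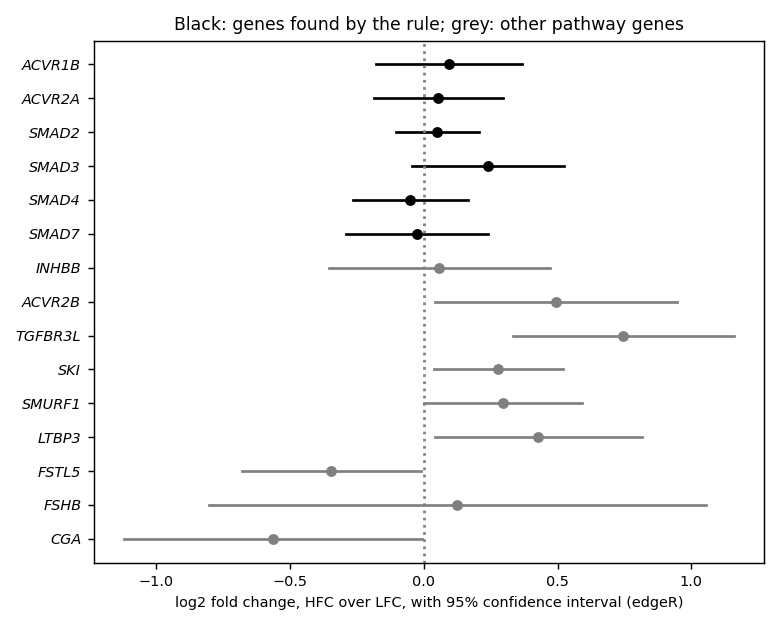
Log2 fold changes, HFC over LFC, with 95% confidence intervals from edgeR. Black marks the 6 genes found by the rule, and grey marks other genes of the pathway and the gonadotroph genes *FSHB* and *CGA*. The intervals of all 6 include 0, and *TGFBR3L* lies farthest to the right (0.75).

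The wider family of TGF-beta signalling was read from 74 further genes, of which 73 were found by name and 55 were tested. At an unadjusted p of at most 0.05, 4 were higher and 1 was lower in the HFC pigs, or 9.09% against 11.4% of all genes tested in edgeR, and none had an adjusted p below 0.383. The median log2 fold change of the 55 was -0.01. By role, the count was 0 of 12 ligands, 1 of 10 receptors, 2 of 15 extracellular regulators and 2 of 18 intracellular genes. These counts depended on the libraries, as 11 of the wider list had an unadjusted p of at most 0.05 without HFC replicate 5, 8 without LFC replicate 2, 3 without HFC replicate 4, 2 without LFC replicate 3 or HFC replicate 7, and 1 without HFC replicate 1. The count over all genes moved as well, from 1559 with all pigs to 3514 without HFC replicate 5 and 989 without HFC replicate 4. The changes are thus not particular to this list.

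The receptor was *TGFBR3L*, a co-receptor through which inhibin B acts on gonadotrophs. It ran from 20.5 to 54.5 CPM in the LFC pigs and from 36.2 to 79.6 CPM in the HFC pigs. All 8 HFC pigs were above the LFC median and 5 were above every LFC pig. The means were 33.3 ± 10.4 CPM (SD, n = 8) and 56.0 ± 17.0 CPM (SD, n = 8), and the log2 fold change of 0.75 (SE 0.20) had an unadjusted p of 0.00132 and an adjusted p of 0.383 in edgeR (exact two-sided permutation p = 0.00435; adjusted p = 0.0807 in DESeq2). It stayed between 0.66 and 0.88 without single pigs, was 0.76 without the 3 libraries of lowest length slope and 0.58 with the length slope in the model (unadjusted p = 0.00750 in edgeR).

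The remaining genes of the wider list under that threshold act outside and inside the cell. *LTBP3*, which holds latent TGF-beta in the matrix, differed by 0.43 (SE 0.18) on the log2 scale, and *FSTL5*, a follistatin-like gene, by -0.35 (SE 0.16). *SKI*, a repressor that binds SMAD proteins, had 64.6 ± 10.8 CPM (SD, n = 8) for LFC and 78.5 ± 11.3 CPM (SD, n = 8) for HFC (log2 fold change 0.28). *SMURF1*, a ubiquitin ligase that marks SMADs and receptors for breakdown, had a log2 fold change of 0.30. The adjusted p of these 4 genes in edgeR was between 0.417 and 0.433, and under total library scaling none of the 4 kept an unadjusted p of at most 0.05. With the length slope in the model the log2 fold changes were 0.17 for *LTBP3*, 0.13 for *SKI* and 0.16 for *SMURF1*, and with 1 surrogate variable 0.11, 0.09 and 0.10, with unadjusted p-values of 0.120 or more in edgeR. *FSTL5* was -0.45 and -0.47 in these models and -0.17 without LFC replicate 3 (unadjusted p = 0.183 in edgeR). With single pigs left out, an unadjusted p of at most 0.05 held in 11 of 16 omissions for *LTBP3*, 9 for *FSTL5*, 14 for *SKI* and 6 for *SMURF1*.

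Of 11 gonadotroph genes, 7 were tested and 1, *CGA*, had an unadjusted p of at most 0.05 (14.3%, against 11.4% of all genes), with a log2 fold change of -0.56 and an adjusted p of 0.433 in edgeR. It was -0.35 without LFC replicate 4 (unadjusted p = 0.157 in edgeR), -0.35 with the length slope in the model and -0.23 with 1 surrogate variable, and the unadjusted threshold was kept in 7 of 16 omissions of single pigs. *CGA* encodes the alpha subunit shared by the glycoprotein hormones and is therefore also made in thyrotrophs. *TSHB*, from the gonadotroph and thyrotroph marker list, had a log2 fold change of -1.05 (SE 0.56; unadjusted p = 0.0783 and adjusted p = 0.455 in edgeR). Which of these cells the *CGA* difference belongs to was not tested. *FSHB*, the best known target of activin in this gland, varied widely between pigs of both groups. It ran from 799 to 6842 CPM with a mean of 2880 ± 2044 CPM (SD, n = 8) for LFC and from 895 to 7345 CPM with a mean of 3143 ± 2047 CPM (SD, n = 8) for HFC (log2 fold change 0.13, SE 0.44; adjusted p = 0.906 in edgeR).

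Across the 16 pigs, *SMAD4* went with the gonadotropin genes. Correlations of log2(CPM + 1) were computed for 92 pairs, made of the 8 well-measured pathway genes with each other, with 5 hormone genes, with the length slope and with the mean levels of the glia and connective tissue lists. For *SMAD4* and *FSHB* Pearson's r was 0.765 (permutation p = 0.00050, adjusted 0.0230) and Spearman's rho 0.768 (permutation p = 0.00085, adjusted 0.0782). For *SMAD4* and *CGA* r was 0.781 (permutation p = 0.00044, adjusted 0.0230) and rho 0.662 (permutation p = 0.00669, adjusted 0.154). Both pairs thus passed the adjusted threshold by r and missed it by rho. With *PRL*, *GH1* and *POMC* no pathway gene passed by r or by rho. The smallest permutation p for r was that of *SMAD7* with *GH1* (r = -0.490, permutation p = 0.0546, adjusted 0.338) and for rho that of *ACVR2A* with *GH1* (rho = 0.509, permutation p = 0.0462, adjusted 0.320).

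Each pair kept its direction within both groups. For *FSHB* r was 0.762 within LFC (exact permutation p = 0.0237, n = 8) and 0.822 within HFC (exact permutation p = 0.0124, n = 8). For *CGA* r was 0.747 (exact permutation p = 0.0296, n = 8) and 0.918 (exact permutation p = 0.00154, n = 8), although rho within the LFC pigs was only 0.333. Adjusted over the 92 pairs, none of these exact permutation p-values passed 0.05, the smallest of the 4 being 0.142. Without LFC replicates 4 and 5, the pigs farthest from the median of *SMAD4*, r was 0.646 for *FSHB* and 0.710 for *CGA*, and without the 3 libraries of lowest length slope 0.680 and 0.600. Both pairs depended on the scaling. With scaling by the total library, r was 0.392 for *FSHB* (permutation p = 0.133, adjusted 0.362) and 0.581 for *CGA* (permutation p = 0.0179, adjusted 0.146). Neither pair passed the adjusted threshold under that scaling, where the adjustment ran over the pairs of genes only, fewer than the 92. LFC replicate 4 and HFC replicate 5, the pigs with the most *SMAD4*, also had the most *FSHB*, with 6842 and 7345 CPM. LFC replicate 5 had the least *SMAD4* and *FSHB* and the most *GFAP* and *MBP* of the LFC pigs. HFC replicate 6, with the most *GFAP* and *MBP* of its group, had neither at its group's lowest. With the glia list *SMAD4* had an r of -0.392 (permutation p = 0.132, adjusted 0.425), and the part of glia in the 2 pairs was not tested.

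**Figure D3:**
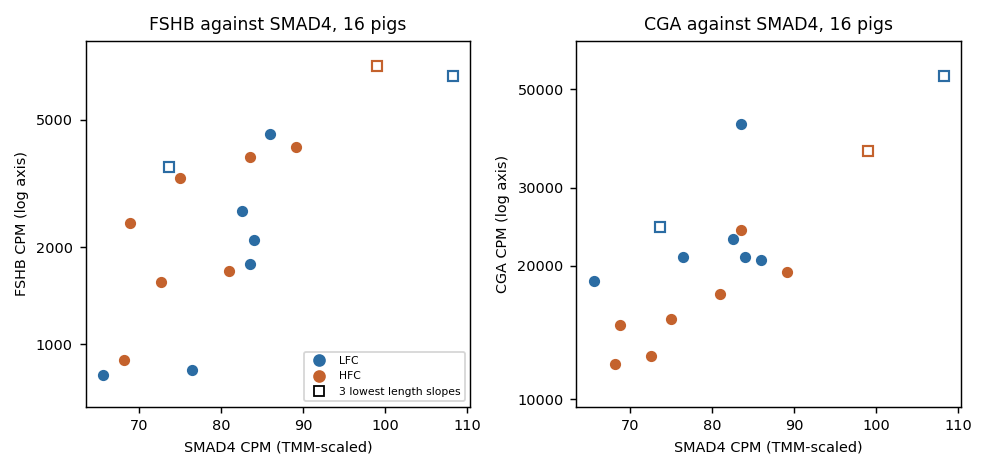
*FSHB* and *CGA* (CPM, log axis) against *SMAD4* (CPM) in the 16 pigs, with LFC pigs in blue, HFC pigs in orange and the 3 libraries of lowest length slope as open squares. Pigs with more *SMAD4* had more of both genes (r = 0.765 and 0.781), and 2 open squares hold the upper right corner.

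For the other SMAD genes no such pair passed. With *FSHB*, r was 0.09 for *SMAD2*, -0.44 for *SMAD3* and -0.48 for *SMAD7*, with permutation p-values of 0.0586 or more and adjusted p-values of 0.338 or more; the differences between these r values were not tested. Under total library scaling these r values were -0.533, -0.619 and -0.667 (permutation p = 0.0333, 0.0112 and 0.00507; adjusted 0.157, 0.134 and 0.0862), so that of *SMAD2* changed sign. *ACVR1B* had an r of -0.567 with *FSHB* (permutation p = 0.0226, adjusted 0.260), and of -0.694 under that scaling (permutation p = 0.00285, adjusted 0.0862). Between the SMAD genes themselves, the lowest r was that of *SMAD4* and *SMAD7*, at -0.586 (permutation p = 0.0162, adjusted 0.215) with a rho of -0.682 (permutation p = 0.00438, adjusted 0.134). *SMAD2* and *SMAD3*, which the same receptors activate, had an r of -0.480 (permutation p = 0.0589, adjusted 0.338), which was 0.151 under total library scaling. The levels of the 10 genes were not set against each other, because exon lengths were not used here.

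**Figure D4:**
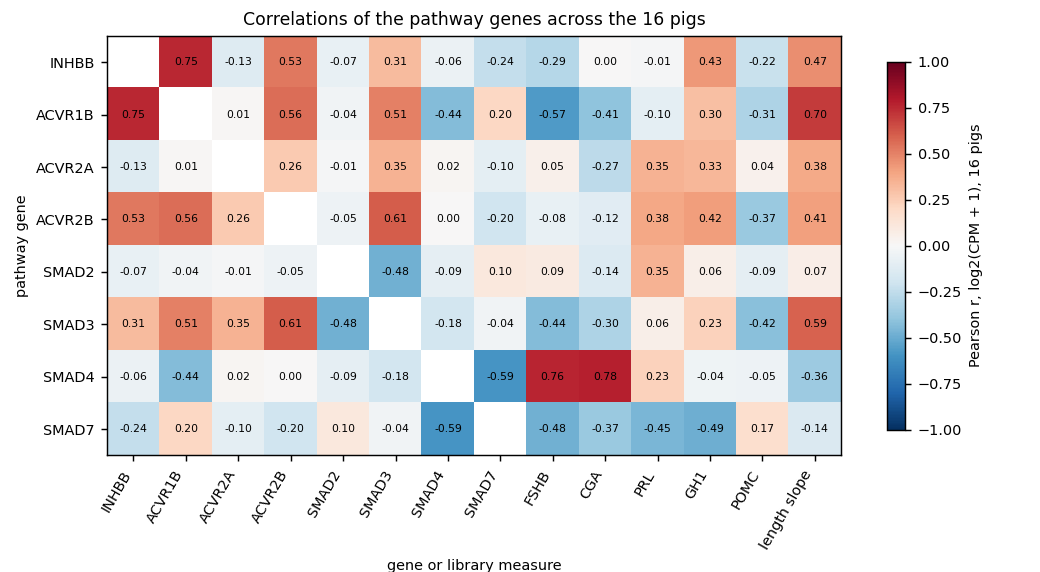
Pearson's r of log2(CPM + 1) across the 16 pigs between the 8 well-measured pathway genes (rows) and the same genes, 5 hormone genes and the length slope (columns), from blue for -1 to red for 1. The strongest cells are *SMAD4* with *CGA* (0.78) and *FSHB* (0.76) and *INHBB* with *ACVR1B* (0.75).

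The third pair to pass was ligand and receptor, *INHBB* and *ACVR1B*. Their r was 0.754 (permutation p = 0.00086, adjusted 0.0264), with a rho of 0.688 (permutation p = 0.00413, adjusted 0.134). Pearson's r was 0.796 within LFC (exact permutation p = 0.0190, n = 8) and 0.814 within HFC (exact permutation p = 0.0149, n = 8), or 0.364 and 0.273 after adjustment of these exact p-values. It was 0.723 without LFC replicate 3 and HFC replicate 1, the pigs farthest from the median of *INHBB*, and 0.788 under scaling by total library size.

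No pathway gene passed the adjusted threshold with the length slope of the libraries. *ACVR1B* had an r of 0.701 with it (permutation p = 0.00281, adjusted 0.0646; rho 0.509) and *SMAD3* one of 0.589 (permutation p = 0.0163, adjusted 0.215; rho 0.612). Without the 3 libraries of lowest slope the r of *ACVR1B* was 0.301 (permutation p = 0.317) and that of *SMAD3* 0.528. Taken on what was left after each gene was regressed on the slope, r was 0.677 for *INHBB* with *ACVR1B*, 0.723 for *SMAD4* with *FSHB* and 0.762 for *SMAD4* with *CGA* (permutation p = 0.00415, 0.00144 and 5.7e-04; adjusted 0.087, 0.0605 and 0.0479). Only the pair of *SMAD4* and *CGA* thus passed the adjusted threshold on these residuals, narrowly, at 0.0479. This adjustment left out the pairs with the length slope. It therefore ran over fewer pairs than the adjustment without regression on the slope, and was less strict. Whether the pair would pass over the full number of pairs was not tested.

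**Figure D5:**
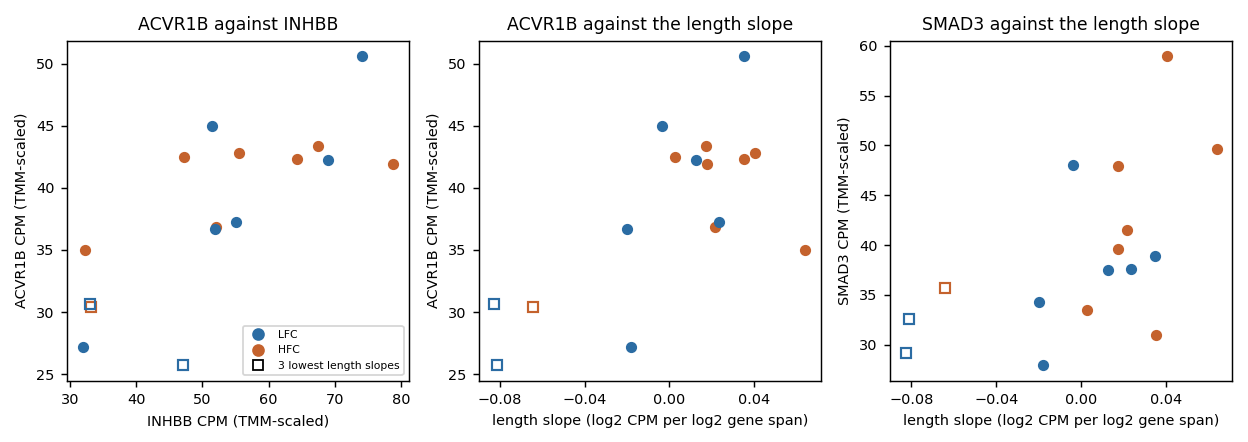
*ACVR1B* against *INHBB*, and *ACVR1B* and *SMAD3* against each library's length slope (log2 CPM per log2 gene span), in CPM for the 16 pigs, LFC in blue and HFC in orange. The 3 open squares at the left, the libraries of lowest slope, have *ACVR1B* between 25.7 and 30.7 CPM.

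Across all named genes tested, the 3 with the highest r were found for each gene over the 16 pigs, as a description. For *SMAD4* they were *EMB* (0.908), *ZCWPW1* (0.853) and *MTA3* (0.850), and *CGA* and *FSHB* ranked 21 and 36. *SMAD3* was nearest to *ATP2B3* (0.874), *KIAA1551* and *CECR2*, and *SMAD7* to *SORBS3* (0.914), *CAP2* and *RCSD1*. *ACVR1B* was nearest to *SOX4* (0.943), *OLFML2A* and *CACNA1C*, and *ACVR2A* to *NPAT* (0.838), *CNOT6L* and *SGPL1*. *SMAD2*, the most even gene, had the lowest of these best values, with *ABHD6* (0.734), *TBC1D16* and *ORAI3*. Of the genes outside the 6, *INHBB* was nearest to *MEX3B* (0.878), *SCNN1G* and *PREX1*, and *ACVR2B* to *DPP7* (0.864), *DCHS2* and *PRRT3*.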

How the data were processed

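After trimming, the authors used STAR and RSEM with Sscrofa11.1 and its Ensembl annotation and deposited unnormalized counts of reads per gene, which are whole numbers; whether estimates were rounded is not given in the sources used here. Their table of group means, ratios and p-values was used only for gene symbols and positions. The group was read from a label field named for shear force that holds low_FCR or high_FCR. The 6 members and all gene lists were chosen with earlier results of these data known. Of the genes with no symbol in the authors' table, 5875 were named by the Ensembl name table. Another 326 were named by 1 RefSeq gene of the same assembly overlapping at least 50% of both spans, and 10129 stayed unnamed.

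In R 4.3.3, edgeR 4.0.16 was run on the 16 pigs with TMM scaling, its expression filter, a group term only, a prior count of 2, and Benjamini-Hochberg adjustment over 13621 genes. Log2(CPM + 1) was used for exact permutation tests over all 12870 splits into 8 and 8, two-sided, and for correlations with 100000 resamples. Alternatives were DESeq2 1.42.0, limma 3.58.1 voom with quality weights, 3 other scalings, 2 other filters, a replicate block, 1 surrogate variable (sva 3.50.0), the length slope as covariate, robust estimation, a prior count of 0.5, a pseudocount of 0.1 and each pig left out. Leaving out 3 libraries together, the residual and total-scaling correlations, and the pairs with FSHB, the length slope and the marker lists were added after the data were seen. The named genes were the members, genes of the lists with an unadjusted p of at most 0.05 or among the 2 most abundant of their role, and the 3 nearest genes of each member. One marker gene is not reported here and was left out of its list. The edgeR test was run on simulated counts. Values per kilobase were not computed, since no exon or protein lengths were used here. Python 3.11.15 with numpy 2.4.6, scipy 1.17.1 and pandas 2.3.3 did the rest.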

Additional observations from a re-analysis of the deposited data

How the results depend on the processing

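No member was called at an adjusted p of at most 0.05 under any alternative run, nor at 0.1 without a fold change minimum. The count of members with an unadjusted p of at most 0.05, 0 in the reported test, was 1 with the replicate block (SMAD3, log2 fold change 0.23, unadjusted p = 0.0482 in edgeR) and between 0 and 1 with single pigs left out. The replicate numbers do not pair the pigs: deviations of same-numbered pigs had r from -0.343 to 0.374, over 0.1 in 3 of 8 pairs, and in 0 of 8 was the own number the best match. Directions near 0 turned. With 1 surrogate variable the log2 fold changes were -0.15 for INHBB, -0.0892 for ACVR1B, -0.0083 for ACVR2A and 0.0333 for SMAD4, and with the length slope as covariate -0.11, -0.0459, -0.0099 and 0.0066, with 0.0046 for SMAD7. With single pigs left out they ran from -0.0217 to 0.15 for INHBB, from -0.0930 to 0.0230 for SMAD4 and from -0.0765 to 0.0514 for SMAD7. Over all genes, 1559 passed an unadjusted 0.05 in edgeR, against 625 with the surrogate variable, 650 with the length slope, 2540 with voom and 989 to 3514 with single pigs left out (989 without HFC replicate 4, 3514 without HFC replicate 5). For the wider list the count of 5 became 1 under total library scaling, 11 with voom, 10 without the 3 libraries of lowest slope and 1 to 11 with single pigs left out. Of 92 correlated pairs, 3 passed the adjusted p by r, against 0 within the LFC pigs, 0 within the HFC pigs and 0 without the 3 libraries. On residuals 1 passed and under total library scaling 1 passed, each adjusted over fewer than the 92 pairs. Residuals left out the pairs with the length slope, and total library scaling left out those and the pairs with the marker lists. The causes of these changes were not tested. The counts within groups and without the 3 libraries rested on fewer pigs, while those on residuals and under total library scaling used all pigs but fewer pairs. A pseudocount of 0.1 changed no call. Levels per kilobase were not run.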

Other observations

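Among the other genes of the TGF-beta family, the receptors with the most reads were TGFBR3, the inhibin co-receptor betaglycan, with 154 ± 51.0 CPM (SD, n = 8) for LFC and 184 ± 52.6 CPM (SD, n = 8) for HFC, and TGFBR2, with 78.2 ± 11.9 CPM and 81.8 ± 25.9 CPM (SD, n = 8 each). Their adjusted p-values in edgeR were 0.567 and 0.864. The ligand genes with the most reads were GDF9, better known from the oocyte, and BMP7. GDF9 had 31.6 ± 2.30 CPM (SD, n = 8) for LFC and 28.5 ± 2.16 CPM (SD, n = 8) for HFC, and 1 of the 8 HFC pigs was above the LFC median (log2 fold change -0.15, adjusted p = 0.438 in edgeR; exact two-sided permutation p = 0.0173). BMP7 differed more between pigs than any group difference, from 2.61 to 55.9 CPM within the HFC group alone. FSTL1, FKBP1A and NEDD4L, abundant among the extracellular and intracellular genes, had log2 fold changes of -0.10, -0.11 and 0.26, with adjusted p-values of 0.811, 0.574 and 0.452 in edgeR.

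The marker lists varied between pigs. Posterior lobe glia genes were found in all pigs and ran from 117 to 4349 CPM in the LFC and from 107 to 2554 CPM in the HFC pigs. The connective tissue list ran from 242 to 481 CPM and from 296 to 861 CPM, the macrophage list from 83.2 to 135 CPM and from 49.6 to 169 CPM, the endothelial list from 67.9 to 105 CPM and from 60.6 to 165 CPM, and HBB from 273 to 1414 CPM and from 61.9 to 1033 CPM. None of the 8 well-measured pathway genes had an adjusted permutation p of at most 0.05 with the glia or connective tissue list. In 20 groups of 8 values, from 10 genes, no single pig lay apart from its group by Dixon's test.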
